A study of Mus musculus with 8 samples.

Results

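The 10 genes described here encode matrix metalloproteinases, ADAM proteinases and tissue inhibitors of metalloproteinases, and were chosen by symbol: Mmp8, Mmp9, Mmp12, Mmp13, Mmp14, Adam8, Adam10, Adam17, Timp1 and Timp2. All 10 were found among the 55487 genes of the deposited table. They were measured by RNA sequencing in J774A.1, a mouse macrophage cell line, so the data describe a single line and not a tissue. The LPS group held 4 libraries from cells given 1 μg/mL of LPS, the lipopolysaccharide of bacterial outer membranes, which activates macrophages. The LPS + UDCA group held 4 libraries from cells given the same LPS together with 1 mM of the bile acid ursodeoxycholic acid (UDCA), and both groups were collected after 24 h. Every library therefore carries LPS, no library of unstimulated cells was analysed here, and the comparison asks how UDCA shifts these genes under LPS. Nothing in the labels says whether the libraries of a group came from separate experiments, so p-values measure the spread between these samples, which may be technical.

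Matrix metalloproteinases (MMPs) are zinc enzymes, secreted or anchored in the membrane, that cut collagens, gelatins, elastin and other proteins outside the cell, and they are made as inactive proenzymes. ADAMs are membrane-bound relatives that cut the outer parts off other membrane proteins, a process called shedding, by which macrophages release TNF from their surface. TIMPs are small secreted proteins that bind and block the active site of MMPs and of some ADAMs. Macrophages are a known source of MMP-9, MMP-12 and the sheddases ADAM10 and ADAM17, and in inflamed tissue these enzymes shape both the matrix and the cytokines that reach other cells.

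The stretches that precede the genes are shown first, for the 3 abundant ADAM genes, for Timp1 and, as an example of a barely detected gene, for the collagenase gene Mmp13. RefSeq promoter sequences on GRCm38.p6 were matched by symbol to 9 of the 10 genes, all but Mmp9. Each sequence below holds the 250 bases before the annotated start, 5′ to 3′ on the strand of the gene, with matches to the searched motifs in capitals. The positions are chr7:139992563-139992812 (- strand) for Adam8, chr12:21373633-21373882 (- strand) for Adam17, chr9:70678732-70678981 (+ strand) for Adam10, chrX:20869916-20870165 (+ strand) for Timp1 and chr9:7272264-7272513 (+ strand) for Mmp13.
Adam8: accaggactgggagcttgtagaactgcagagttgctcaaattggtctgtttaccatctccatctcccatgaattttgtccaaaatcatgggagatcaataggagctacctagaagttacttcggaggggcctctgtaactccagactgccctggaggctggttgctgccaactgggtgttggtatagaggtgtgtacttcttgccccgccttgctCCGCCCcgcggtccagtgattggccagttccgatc
Adam17: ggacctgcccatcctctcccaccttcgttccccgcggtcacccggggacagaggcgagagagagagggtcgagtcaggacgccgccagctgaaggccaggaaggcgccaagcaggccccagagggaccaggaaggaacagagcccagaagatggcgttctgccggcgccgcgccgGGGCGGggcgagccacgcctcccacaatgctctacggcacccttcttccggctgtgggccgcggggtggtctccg
Adam10: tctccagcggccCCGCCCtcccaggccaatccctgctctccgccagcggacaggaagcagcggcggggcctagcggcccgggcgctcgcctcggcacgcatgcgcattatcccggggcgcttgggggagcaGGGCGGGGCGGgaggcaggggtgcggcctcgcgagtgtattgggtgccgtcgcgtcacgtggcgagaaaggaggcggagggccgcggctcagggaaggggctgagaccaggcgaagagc
Timp1: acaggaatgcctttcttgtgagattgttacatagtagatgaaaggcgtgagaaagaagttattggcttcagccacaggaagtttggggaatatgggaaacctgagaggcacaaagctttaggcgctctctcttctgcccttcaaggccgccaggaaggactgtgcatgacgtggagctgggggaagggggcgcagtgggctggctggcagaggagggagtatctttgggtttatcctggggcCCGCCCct
Mmp13: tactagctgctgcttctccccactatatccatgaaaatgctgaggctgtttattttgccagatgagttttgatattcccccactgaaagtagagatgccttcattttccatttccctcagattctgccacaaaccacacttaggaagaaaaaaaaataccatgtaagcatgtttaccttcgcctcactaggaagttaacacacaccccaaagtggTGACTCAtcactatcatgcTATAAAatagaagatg

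The motifs were searched on both strands, the GC box and TATA box as exact letters and the AP-1 motif with any base at N. The AP-1 motif TGANTCA occurred in 6.75% of the 32851 promoter windows of the table, the GC box GGGCGG in 32.7% and the TATA box TATAAA in 12.4%. The NF-κB motif, searched as a pattern of 10 bases with several variable positions, occurred in 7.25%. A GC box, capitalised in the sequences above, lay before Adam8, Adam17, Adam10 and Timp1, and 2 of the 3 matches of Adam10 overlap by a single base. The GC content of the window was 70.4% for Adam17 and 74.0% for Adam10, against a median of 52.4% over all windows, while those of Adam8 and Timp1 were 52.8% and 54.4%. The Mmp13 window had a GC content of 40.4% and held an AP-1 match 35 to 29 bases before the start, with a TATA box after it. The NF-κB motif matched none of the 5 windows printed. It matched 1 of the 2 windows of Mmp12, and the other held an AP-1 match. Windows with a GC box were not particular to the abundant genes, as Mmp14 held 2 at a GC content of 55.2% and Timp2 held 1 at 68.0%, and both stayed under 1 TPM. The Mmp8 window held 0 matches. A match of letters is a description of the window and was not tested for binding.

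The values are TPM, in which the reads of a gene are divided by its length and the library is scaled to a total of 1000000, so that levels can be compared between genes. The unit keeps no read numbers, so the depth of the libraries is unknown and no counting error can be given. The columns summed to between 973190 and 977485 TPM without UDCA and to between 958918 and 962737 TPM with it. Of 12 macrophage markers, 11 averaged 1 TPM or more and Mertk was listed at 0, and their summed level was 4598 to 4874 TPM in the LPS libraries and 2331 to 2591 TPM in those with UDCA. The largest marker was Lyz2 in the LPS libraries (1988 and 436 TPM on average) and Cd14 in those with UDCA (1205 and 922 TPM). The markers moved both ways, with 4 higher, among them Adgre1 (46.6 and 114 TPM), and 6 lower at an FDR under 0.05 (limma). Of all genes averaging 1 TPM or more, 40.2% were higher and 32.3% lower at that FDR. Among the markers of other cell types, only Pdpn of 9 fibroblast genes, S100a8 and S100a9 of 9 neutrophil genes, Cd79b of 9 lymphocyte genes and none of 7 epithelial genes reached that mean. The lymphocyte genes summed to 3.10 to 4.49 TPM and 0.350 to 1.60 TPM in the same order, with Cd3e at 0, and the epithelial genes to at most 0.19 TPM in any library, with Epcam at 0. The 9 neutrophil markers are of interest because neutrophils store MMP-8 and MMP-9. They summed to between 18.9 and 25.9 TPM without UDCA and to between 3.54 and 9.86 TPM with it. Most of this sum was S100a8 (19.2 and 4.52 TPM on average), while Csf3r had 0.175 and 0.398 TPM and Cxcr2 0.188 and 0.298 TPM, and the defining markers Ly6g, Elane and Camp were listed at 0 in all 8 libraries. The part of any of these changes in the results was not tested. The markers given with values were picked after their values were seen.

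With UDCA, Mmp9 and Adam10 were higher, Adam17 was slightly higher, and Adam8 and Timp1 were lower, while the other 5 genes stayed under 1 TPM in every library. Mmp9 was the single member past both thresholds, a 2-fold change and an FDR under 0.05, and 0 members were lower past both (2 at the FDR alone). In bulk RNA, fewer cells of a type and less RNA per cell cannot be told apart. Of all 11796 genes averaging 1 TPM or more, 8.71% were higher and 8.44% lower by both thresholds, from limma with Benjamini-Hochberg adjustment on log2(TPM + 1). At an FDR under 0.05 alone, 40.2% of all genes tested were higher and 32.3% lower, so that passing this threshold was common in these libraries. The groups did not overlap, with the LPS + UDCA libraries above, in 37.0% of all genes tested, and with them below in 29.9%. Among the members, 5 were tested, and all 5 had an FDR under 0.05 and groups that did not overlap. That count says little, because Mmp9 entered the test through its level with LPS + UDCA and Timp1 through its level with LPS.

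**Figure D1:**
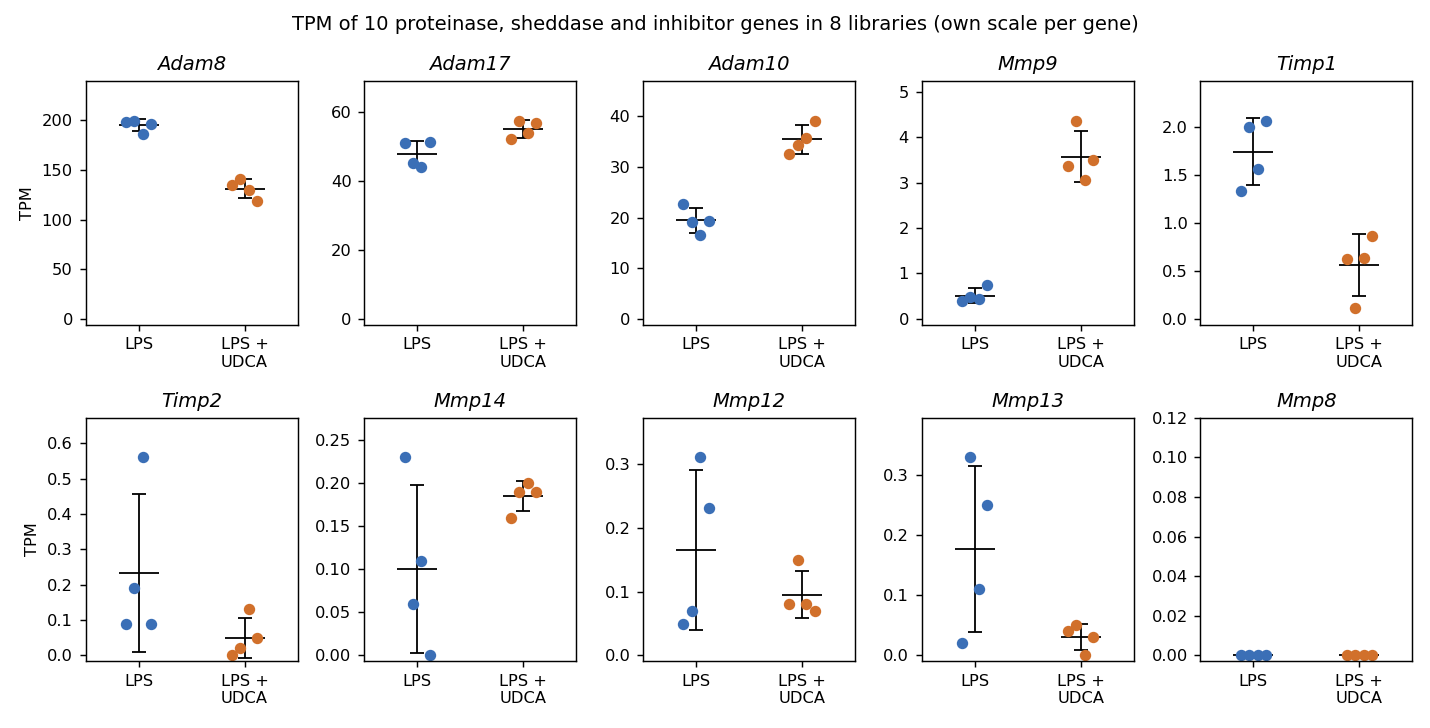
TPM of each of the 10 genes, with 1 point per library, a line at the group mean and a bar of 1 SD (n = 4), each gene on its own linear axis from 0. The groups of Adam8, Adam17, Adam10, Mmp9 and Timp1 do not overlap, and the lower row of genes stays under 1 TPM.

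Mmp9 encodes gelatinase B, a secreted enzyme that cuts denatured collagen and type IV collagen, and lies on chromosome 2 from 164940780 to 164955850 of GRCm38. The LPS libraries had 0.39, 0.48, 0.44 and 0.74 TPM, and the LPS + UDCA libraries 3.36, 4.37, 3.06 and 3.50 TPM (replicates 1 to 4). Every library with UDCA was above every library without it. The means were 0.513 ± 0.156 TPM in the LPS libraries and 3.57 ± 0.562 TPM in those with UDCA (SD, n = 4), a 6.97-fold ratio. On the log2(TPM + 1) scale, which understates the change of a gene this low, the log2 fold change was 1.59 (95% confidence interval 1.29 to 1.89, adjusted p = 4.8e-06 from limma). It was 2.60 with a pseudocount of 0.1 and 2.81 with 0.01. Despite this rise Mmp9 remained a low transcript, since 18.6% of the genes tested had a lower mean TPM in the LPS + UDCA group, against 1.5% in the LPS group. Of its 31-base words, 0 occur in transcripts of another gene.

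The 2 genes with the profile nearest to that of Mmp9 were Uqcc3, an assembly factor of respiratory complex III, and Fcgr1, the high-affinity IgG receptor CD64. Nearness was the root-mean-square distance of centred log2(TPM + 1) over the 8 libraries, among 7072 genes averaging 10 TPM or more, and it was 0.0716 for Uqcc3 and 0.110 for Fcgr1. Uqcc3 had a mean of 11.2 TPM in the LPS libraries and 34.2 TPM in those with UDCA, and Fcgr1 37.7 and 107 TPM. With a design of 2 groups, such a distance mostly records a similar difference between the groups. It also rests on the pseudocount of 1, which understates the rise of Mmp9 more than that of these abundant genes. On TPM the ratio of means was 6.97 for Mmp9, against 3.04 for Uqcc3 and 2.84 for Fcgr1. Nearness with other pseudocounts was not computed.

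The other 4 MMP genes were at or near 0. Mmp8, which encodes neutrophil collagenase, was listed at 0 in all 8 libraries. Mmp12, the macrophage elastase, had 0.05, 0.07, 0.31 and 0.23 TPM in the LPS libraries and 0.08, 0.15, 0.08 and 0.07 TPM in those with UDCA, and the groups overlapped (2-sided exact permutation test, unadjusted p = 0.43). For Mmp13, which encodes collagenase 3, the values were 0.02, 0.33, 0.11 and 0.25 TPM in the LPS libraries and 0.04, 0.05, 0 and 0.03 TPM in those with UDCA, again overlapping (exact permutation test, p = 0.11). Mmp14 encodes the membrane-anchored MT1-MMP, which activates pro-MMP-2, and had 0.23, 0.06, 0.11 and 0 TPM against 0.16, 0.19, 0.20 and 0.19 TPM (exact permutation test, p = 0.14). None of these 3 genes differed beyond the spread of its libraries, and at levels this close to 0 a real difference could be missed. Mmp8, Mmp12 and Mmp13 lie in the MMP gene cluster of chromosome 9, from 7272514 to 7283331 for Mmp13, from 7344381 to 7369499 for Mmp12 and from 7558456 to 7568485 for Mmp8. Mmp14 is on chromosome 14 from 54431612 to 54445364. Summed over the 5 MMP genes, the level was between 0.690 and 1.22 TPM without UDCA and between 3.34 and 4.76 TPM with it. Mmp9 held between 45.4% and 60.7% of that sum with LPS and between 91.6% and 92.3% with LPS + UDCA.

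The ADAM genes were by far the most abundant, with 98.8% to 99.2% of the summed TPM of the 10 genes with LPS and 97.8% to 98.2% with LPS + UDCA. Adam8 encodes a sheddase of leukocytes whose known substrates include L-selectin and CD23, and lies on chromosome 7 from 139978932 to 139992562. It had 198.66, 199.73, 186.51 and 196.61 TPM in the LPS libraries and 134.70, 141.27, 130.05 and 118.40 TPM in those with UDCA. All 4 libraries with UDCA were lower than all 4 without, with means of 195 ± 6.05 and 131 ± 9.64 TPM (SD, n = 4). The fall was 1.49-fold (log2 fold change -0.57, 95% confidence interval -0.70 to -0.45, adjusted p = 1.1e-05 from limma), short of the fold change minimum. Adam8 nevertheless stayed the most abundant of the 10 genes in both groups. The antisense gene Gm16201 overlaps an exon of Adam8, and it had 4.73 ± 0.404 TPM in the LPS libraries and 4.32 ± 0.517 TPM in those with UDCA (adjusted p = 0.33 from limma).

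Adam10 encodes the main sheddase of Notch receptors, of CD44 and of the transmembrane chemokines, and lies on chromosome 9 from 70678997 to 70780229. The LPS libraries had 22.69, 19.14, 16.55 and 19.32 TPM and the LPS + UDCA libraries 32.55, 34.31, 35.66 and 39.13 TPM. The groups were well apart, with means of 19.4 ± 2.52 and 35.4 ± 2.79 TPM (SD, n = 4). The log2 fold change was 0.84 (95% confidence interval 0.63 to 1.05, adjusted p = 3.3e-05 from limma), a 1.79-fold rise that did not reach the fold change minimum, although the interval includes it.

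Adam17 encodes TACE, the enzyme that releases TNF and the TNF receptors from the cell surface, and lies on chromosome 12 from 21323509 to 21373632. It had 50.87, 45.09, 44.00 and 51.32 TPM in the LPS libraries and 52.00, 57.38, 53.78 and 56.59 TPM in those with UDCA. The highest LPS library lay just below the lowest library with UDCA, so the groups were apart by a narrow margin. Means were 47.8 ± 3.81 and 54.9 ± 2.49 TPM (SD, n = 4), a 1.15-fold rise (log2 fold change 0.20, 95% confidence interval 0.06 to 0.34, adjusted p = 0.017 from limma). With median-of-ratios scaling the log2 fold change was 0.12 and the adjusted p 0.054, so that this small rise depended on the scaling. Over all 16 alternatives the adjusted p of Adam17 ranged from 0.0066 to 0.054. The gene Iah1 overlaps an exon of Adam17 on the opposite strand, and it went the other way, from 32.8 ± 3.50 to 21.9 ± 4.35 TPM. Whether reads were counted by strand is not given in the sources used here, and without strand the reads of such pairs cannot be told apart. The same limit holds below for Mmp19, Mmp28, Adam15, Pcsk7, Furin, Frmd8, Pacs2, Csf1r, Cd151, Pdia3, Pdia6, Ctsb and Ctsl. It also holds for Mmp12, which overlaps Mmp1b, and for the barely detected Mmp11, which overlaps Chchd10.

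The 3 ADAM genes thus differed between the groups by unequal amounts, and their summed level was between 247 and 272 TPM without UDCA and between 214 and 233 TPM with it. Adam8 supplied 73.0% to 75.7% of this sum with LPS and 55.3% to 61.4% with LPS + UDCA. The share of Adam10 was 6.70% to 8.34% with LPS and 14.7% to 18.3% with LPS + UDCA, and that of Adam17 17.1% to 19.2% and 23.7% to 26.4%. Adam8 exceeded Adam10 by 8.76 to 11.3-fold in the LPS libraries and by 3.03 to 4.14-fold with UDCA. These shares are given as a description, since a fall of Adam8 alone raises the shares of the other two.

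**Figure D2:**
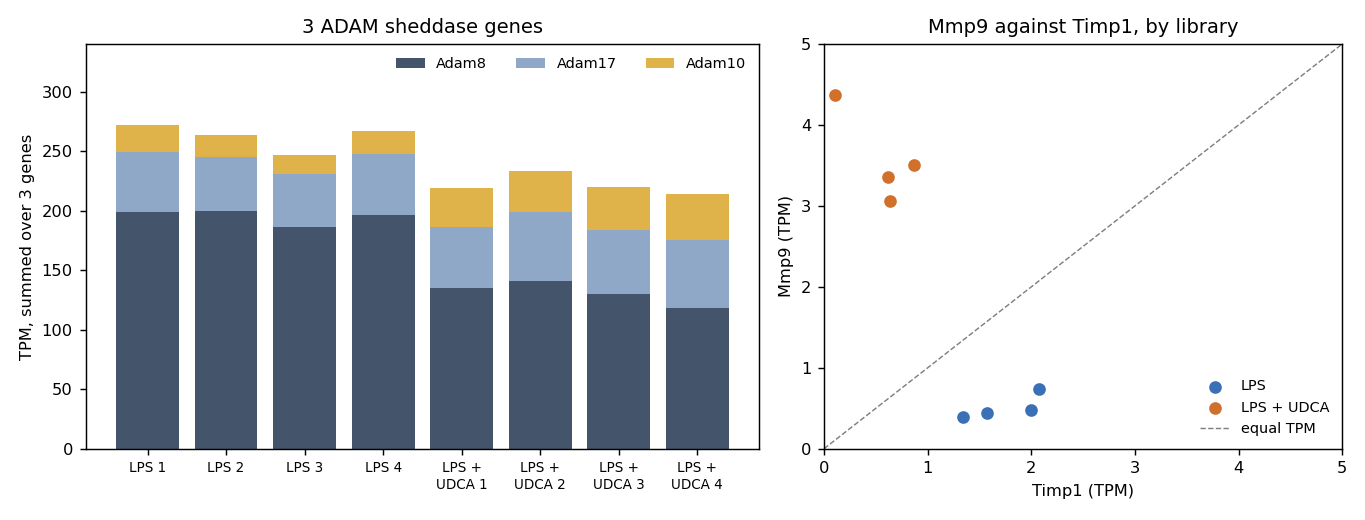
Left, TPM of Adam8, Adam17 and Adam10 stacked for each of the 8 libraries. The Adam8 part shrinks and the Adam10 part grows with UDCA. Right, Mmp9 against Timp1 in TPM, 1 point per library, with a dashed line where both are equal, and the LPS libraries lie below that line and the LPS + UDCA libraries above it.

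Timp1 encodes TIMP-1, an inducible inhibitor of most secreted MMPs and a known binding partner of pro-MMP-9, and lies on chromosome X from 20870166 to 20874735. It had 1.34, 2.0, 1.57 and 2.07 TPM in the LPS libraries and 0.62, 0.11, 0.64 and 0.87 TPM in those with UDCA. No library with UDCA reached the lowest LPS library, and LPS + UDCA replicate 2 was the lowest of all. The means were 1.75 ± 0.349 and 0.560 ± 0.321 TPM (SD, n = 4), a 3.12-fold lower level. On the log2(TPM + 1) scale the log2 fold change was -0.83 (95% confidence interval -1.26 to -0.41, adjusted p = 0.0030 from limma), and without a filter on low values its adjusted p was 0.0058. The call depended on the pseudocount, since the log2 fold change was -1.66 with 0.1 and -1.92 with 0.01, past the fold change minimum. Timp1 is also strongly expressed by fibroblasts, and the 9 fibroblast markers summed to between 33.6 and 38.8 TPM without UDCA and between 6.31 and 7.92 TPM with it, nearly all of it Pdpn, with Col3a1, Dcn and Lum at 0 in every library. Their part in the fall of Timp1 was not tested.

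Timp2 encodes TIMP-2, which inhibits MMPs and also takes part in the activation of pro-MMP-2, and lies on chromosome 11 from 118301069 to 118355740. It had 0.09, 0.19, 0.56 and 0.09 TPM in the LPS libraries and 0, 0.02, 0.13 and 0.05 TPM in those with UDCA. The groups overlapped (exact permutation test, p = 0.11), and the highest value came from a single LPS library. Timp1 and Timp2 together reached between 1.43 and 2.19 TPM without UDCA and between 0.130 and 0.920 TPM with it.

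**Figure D3:**
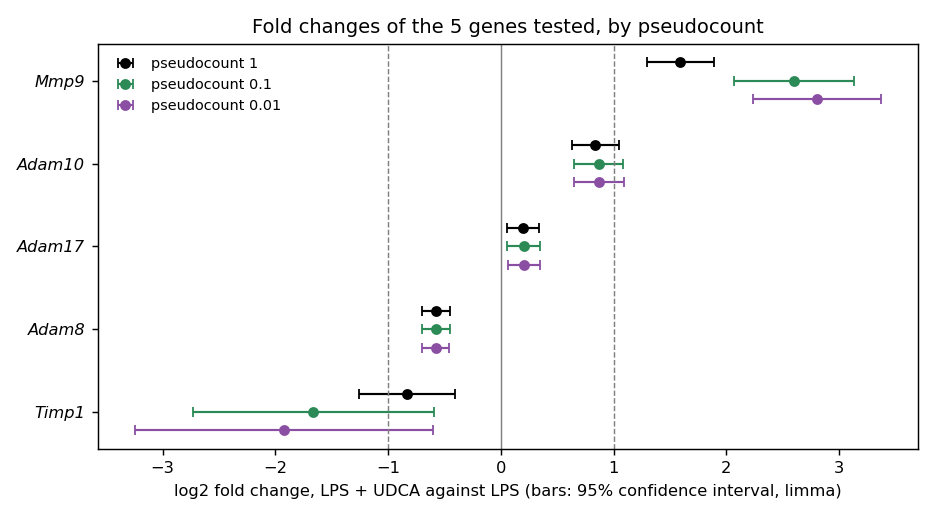
Log2 fold changes (LPS + UDCA against LPS) of the 5 tested genes from limma, with 95% confidence intervals, for pseudocounts of 1, 0.1 and 0.01. The dashed lines mark a fold change of 2, and the estimates of Mmp9 and Timp1 move with the pseudocount while those of the ADAM genes barely move.

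In the order of mean TPM, Adam8 stood above Adam17 and Adam17 above Adam10 in both groups, with no overlap between neighbours. With LPS the next genes were Timp1 and then Mmp9, whose libraries did not overlap (1.34 to 2.07 and 0.39 to 0.74 TPM). With LPS + UDCA this order was turned, with Mmp9 at 3.06 to 4.37 TPM above Timp1 at 0.11 to 0.87 TPM, as the plot of Mmp9 against Timp1 shows. Timp2, Mmp13, Mmp12 and Mmp14 overlapped with each other in the LPS libraries and could not be ranked. In a 2-sided exact permutation test of the difference in mean TPM, each of Mmp9, Adam8, Adam10, Adam17 and Timp1 had p = 0.029, the smallest p that 4 against 4 libraries allow, among 9 genes compared and without adjustment. Any gene whose groups do not overlap has this p, so it adds nothing to the lack of overlap given above. Of all genes tested, 37.0% had such groups with LPS + UDCA above and 29.9% with LPS + UDCA below.

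The rest of the MMP, ADAM and ADAMTS families was mostly silent. Of 18 other MMP genes, 7 were listed at 0 in every library and 9 had a mean under 1 TPM. Mmp19, an MMP found in macrophages and other cells, was the one of the 2 tested that passed the FDR threshold, going from 8.92 ± 0.803 to 15.6 ± 0.873 TPM (log2 fold change 0.74, adjusted p = 1.6e-05 from limma), while Mmp28 had 1.00 ± 0.223 and 1.34 ± 0.0797 TPM (adjusted p = 0.13). Mmp11, which encodes stromelysin 3 and was too low to be tested, had 0 to 0.04 TPM without UDCA and 0.34 to 0.50 TPM with it, and neither its groups nor those of Mmp28 overlapped. Mmp19 had a higher TPM than Mmp9 in both groups. Of 10 other ADAM genes, Adam15 and Adam9 were tested. Adam15, which encodes metargidin, fell from 174 ± 5.33 to 99.8 ± 7.41 TPM (log2 fold change -0.80), and Adam9, which encodes meltrin gamma, rose from 25.6 ± 2.54 to 48.8 ± 2.01 TPM (log2 fold change 0.91). Among 19 ADAMTS genes 4 were tested. Adamts13, which encodes the protease that cuts von Willebrand factor, rose from 24.8 ± 2.82 to 109 ± 5.37 TPM (log2 fold change 2.10, 95% confidence interval 1.92 to 2.28, adjusted p = 4.2e-08 from limma). Adamts10 had 1.96 ± 0.531 and 0.850 ± 0.240 TPM (adjusted p = 0.0064 from limma) with overlapping groups, and it entered the test through its level with LPS. Adamts3 and Adamts6 did not pass. Mmp11, Mmp19, Mmp28, Adam9, Adam15, Adamts3, Adamts6 and Adamts10 were named after their values were seen.

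Other proteinase inhibitors were led by cystatin C. Of 10 such genes, 4 were tested and 3 were lower and 1 higher at an FDR under 0.05, against 32.3% lower and 40.2% higher of all genes tested. Wfdc17, a secreted protein of the WAP family, fell from 270 ± 6.08 to 34.6 ± 5.26 TPM (log2 fold change -2.94) and was the one past both thresholds. Cst3, which encodes cystatin C, an inhibitor of cysteine cathepsins, went from 834 ± 18.3 to 436 ± 8.21 TPM (log2 fold change -0.93) and Cst7, which encodes cystatin F, from 4.66 ± 0.317 to 2.44 ± 1.07 TPM (log2 fold change -0.76). Slpi, an inhibitor of serine proteases, rose from 26.4 ± 5.40 to 47.5 ± 4.67 TPM (log2 fold change 0.84). The genes Cst3, Cst7 and Slpi were named after their values were seen. Timp4 and A2m, named for being so, were listed at 0 in all 8 libraries.

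The partners that mature and traffic ADAM10 and ADAM17 changed in both directions, as did genes over the whole table. Of 16 such genes 11 were tested, of which 4 were higher and 5 lower at an FDR under 0.05, with 1 lower past both thresholds. Of all genes tested, 40.2% were higher and 32.3% lower at that FDR, and 8.44% lower past both. Across the 11, the median log2 fold change was -0.14, against 0.08 over all genes tested. Pcsk7, a proprotein convertase, was the one past both and fell from 24.1 ± 0.873 to 11.04 ± 1.44 TPM (log2 fold change -1.07). Furin, a convertase that removes the prodomain of ADAM10, ADAM17 and MT1-MMP, fell from 41.3 ± 2.36 to 22.5 ± 1.32 TPM (log2 fold change -0.85). Rhbdf2 encodes iRhom2, which carries ADAM17 to the surface of macrophages, and rose from 66.7 ± 3.35 to 77.1 ± 5.38 TPM (log2 fold change 0.21, adjusted p = 0.010 from limma). Rhbdf1, encoding iRhom1, had 7.14 ± 0.807 and 6.38 ± 0.574 TPM (adjusted p = 0.20), and Frmd8, which stabilises the iRhoms, fell from 21.6 ± 0.951 to 16.6 ± 1.46 TPM. Among the tetraspanins that escort ADAM10, Tspan17 rose from 3.68 ± 0.457 to 8.35 ± 1.04 TPM, and Tspan14 and Tspan5 fell with log2 fold changes of -0.53 and -0.49. The log2 fold change of Tspan17 was 0.997, just under the fold change minimum, and ranged from 0.903 to 1.18 over 16 alternatives. The disulfide isomerases Pdia3 and Pdia6 rose with log2 fold changes of 0.74 and 0.30, and Pacs2 did not pass. All but Pcsk7 were named after their values were seen.

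Transcripts of proteins that these sheddases cut were both higher and lower with UDCA. Of 36 listed substrates 22 were tested, with 8 higher and 12 lower at an FDR under 0.05 and 2 higher and 6 lower past both thresholds (median log2 fold change -0.21). Among all genes tested, 40.2% were higher and 32.3% lower at that FDR, and 8.71% were higher and 8.44% lower past both. The TNF substrate of ADAM17, Tnf, fell from 664 ± 4.35 to 206 ± 16.8 TPM (log2 fold change -1.69) while Adam17 itself had a log2 fold change of 0.20. Of the TNF receptors, which ADAM17 also releases, Tnfrsf1b rose from 16.3 ± 1.18 to 30.7 ± 2.40 TPM and Tnfrsf1a had 60.5 ± 2.33 and 63.0 ± 4.18 TPM (adjusted p = 0.38 from limma). Csf1, the macrophage growth factor, rose from 0.670 ± 0.188 to 13.6 ± 0.716 TPM, and its receptor Csf1r, another ADAM17 substrate, fell from 112 ± 4.93 to 43.2 ± 2.79 TPM. Hbegf, a growth factor precursor, fell from 2.57 ± 0.203 to 0.435 ± 0.209 TPM. Csf1 entered the test through its level with LPS + UDCA and Hbegf through its level with LPS. Their part in the counts above therefore says little. The remaining substrates past both thresholds were Sdc1 (log2 fold change -1.75), the endocytic receptor Lrp1 (-1.67), which also clears MMP-9, and Trem2 (-1.32), all lower, and the costimulatory receptor Cd40 (2.54), higher. The list of substrates was compiled from general knowledge, and shedding itself was not measured. Tnfrsf1a, Tnfrsf1b, Csf1r and Hbegf were named after their values were seen.

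Activators and binding partners of MMPs were mostly lower. Of 17 such genes 12 were tested, with 3 higher and 8 lower at an FDR under 0.05 and 1 higher and 3 lower past both thresholds (median log2 fold change -0.70). The shares of all genes tested were 40.2% and 32.3% at that FDR, and 8.71% and 8.44% past both. Plau, the urokinase that turns plasminogen into the MMP activator plasmin, fell from 70.5 ± 2.72 to 6.11 ± 0.724 TPM (log2 fold change -3.34), and its receptor Plaur from 248 ± 8.85 to 94.4 ± 7.93 TPM (log2 fold change -1.39). Itgam, an integrin subunit that binds pro-MMP-9, fell from 176 ± 11.3 to 22.7 ± 2.50 TPM, but 68.1% of its 31-base words also occur in the overlapping gene Gm49368 or other genes, which makes the value uncertain. Lcn2, whose product forms a complex with MMP-9 that protects it from degradation, rose from 594 ± 6.95 to 994 ± 134 TPM (log2 fold change 0.73). Bsg, the MMP inducer basigin, fell from 639 ± 7.84 to 393 ± 21.1 TPM, and Lgals3, an MMP-9 substrate, rose from 980 ± 18.5 to 1723 ± 82.9 TPM. The tetraspanin gene Cd151 rose from 22.1 ± 1.07 to 45.3 ± 1.28 TPM, a log2 fold change of 1.00 at the edge of the minimum: it was 0.93 with median-of-ratios scaling, and the log2 fold change of Cd151 was 0.99 without LPS + UDCA replicate 4, LPS replicate 1 or LPS replicate 2, and also under the minimum without LPS replicate 3. Lcn2, Bsg and Lgals3 were named after their values were seen.

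All 12 tested genes of other proteinases, mostly lysosomal cathepsins, were lower at an FDR under 0.05, and 3 of them were lower past both thresholds (median log2 fold change -0.71). Among all genes tested 32.3% were lower at that FDR and 8.44% past both. The least abundant of the 12 entered the test through its level with LPS. Those 3 were Ctse (541 ± 31.3 to 135 ± 46.3 TPM), Lgmn (232 ± 2.10 to 80.7 ± 2.51 TPM) and Ctsf (22.7 ± 3.42 to 8.21 ± 1.01 TPM), which encode cathepsin E, legumain and cathepsin F. Ctsb, Ctsl and Ctss, which also stand on the list of activators, had log2 fold changes of -0.71, -0.71 and -0.82. Of 25 matrix components only 4 reached a mean of 1 TPM. Spp1, encoding osteopontin, a substrate of several MMPs, fell from 6701 ± 322 to 3042 ± 152 TPM (log2 fold change -1.14), although 14.3% of its 31-base words occur in other genes. Vim and Col18a1 were also lower (log2 fold changes of -0.94 and -0.79) and Lamc1 was higher (0.55), and the collagen and elastin genes Col3a1 and Eln were listed at 0. The cathepsins Ctsb, Ctsl and Ctss and the matrix genes other than Spp1 were named after their values were seen.

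**Figure D4:**
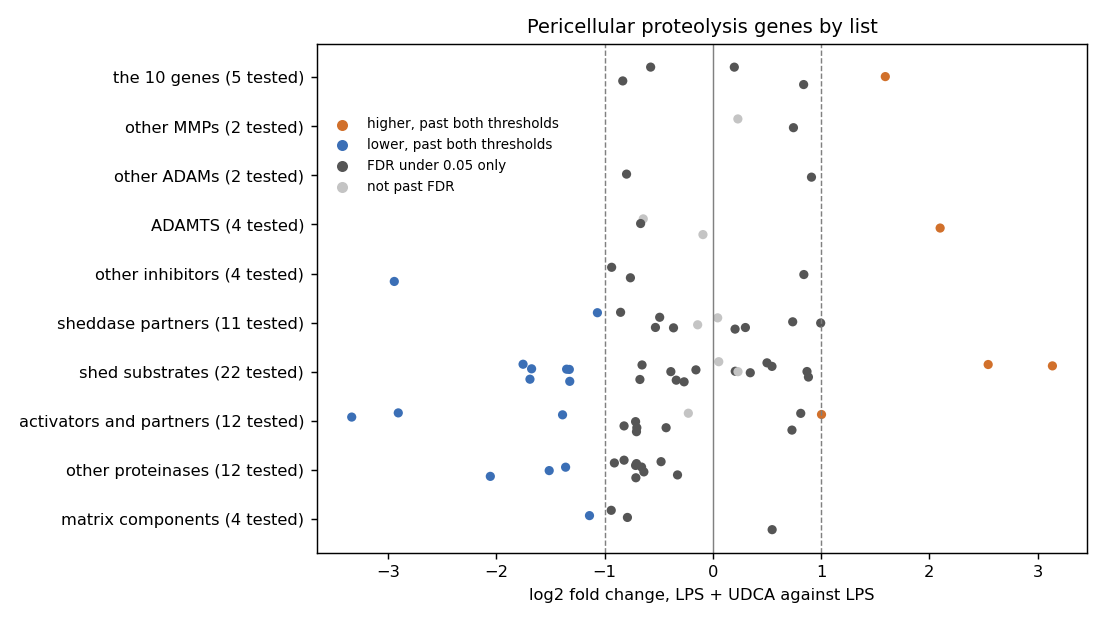
Log2 fold changes (LPS + UDCA against LPS) of the tested genes, 1 point per gene and 1 row per list, with dashed lines at a fold change of 2. The other proteinases all lie on the lower side while the 5 tested members lie on both. Orange marks higher and blue lower genes past both thresholds, and grey the others.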

How the data were processed

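RNA of J774A.1 cells given LPS or LPS + UDCA (4 libraries each) was prepared with an Illumina TruSeq RNA kit and sequenced on a HiSeq machine, and the study's methods name an online platform for the analysis. The submitters' processing notes name Bowtie 0.12.2 and the builds mm10 and GRCm38. The counting program, its annotation and its use of strand are not given in the sources used here. The authors deposited TPM per gene, 1 column per library and 2 decimals, a unit inferred from column sums of slightly under 1000000.

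The members and gene lists were chosen with earlier results of these data known. Log2(TPM + 1) of the 11796 genes averaging 1 TPM or more was fitted with limma 3.58.1 in R 4.3.3 (lmFit, eBayes with a mean-variance trend), with Benjamini-Hochberg adjustment over all genes tested. The thresholds were a 2-fold change and an FDR under 0.05. Members under the filter were compared by an exact permutation test alone, unadjusted.

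Named genes were all 10 members, the genes of each list past both thresholds (with more than 6, the 3 highest and the 3 lowest), and the 2 nearest profiles. Others are marked in the text. Positions, overlaps and 31-base words are from GENCODE M21 on GRCm38, in which all 10 members were found, and promoter windows are from RefSeq on GRCm38.p6. The fit was run on simulated data with fewer changed genes, and larger changes than most members showed. That run does not speak to small changes. Of the library pairs, 0 held identical values. Alternatives covered scaling, filter, pseudocount, trend, a replicate block, thresholds and each library left out. Python 3.11.15, scipy 1.17.1 and matplotlib 3.10.9 were used.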

Additional observations from a re-analysis of the deposited data

Results flagged for a closer look

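Single libraries that stood apart within a group of 4 were looked for with Dixon's ratio (the distance of the extreme value to the next one, over the whole range). It was above the 95% critical value in 8 of 130 sets of values, where chance gives about 1 in 20. Among the members this held for Mmp12 alone, with 0.15 TPM in LPS + UDCA replicate 2, a value near 0. Among the other named genes, the outermost values were the highest library for Lgmn (235 TPM, LPS replicate 2), Cst7 (5.13 TPM, LPS replicate 2), Tspan17 (4.36 TPM, LPS replicate 4) and Uqcc3 (12.6 TPM, LPS replicate 4). In the LPS + UDCA group the highest library stood apart for Adamts6 (4.42 TPM, replicate 4) and Fcgr1 (121 TPM, replicate 2). For Adamts10 the lowest LPS library did, with 1.17 TPM in replicate 3.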

How the results depend on the processing

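Over 78 refitted values of the 5 tested members, the direction of each was kept, and 76 kept the joint call of fold change and FDR. Among these, Adam17 lost the FDR threshold with median-of-ratios scaling (adjusted p = 0.054 from limma). The 2 that changed the joint call were those of Timp1 with pseudocounts of 0.1 and 0.01, each of which brought the number of members lower past both thresholds from 0 to 1. Without the fold change minimum 3 members were higher and 2 lower, and over all genes tested 4741 were higher and 3807 lower. When genes needed 1 TPM or more in every library, Mmp9 and Timp1 were no longer tested, and 0 members were higher past both thresholds. With each library left out in turn, 1 member was higher and 0 were lower past both thresholds, and the log2 fold change ranged from 1.51 to 1.66 for Mmp9 and from -0.93 to -0.68 for Timp1. The libraries share replicate numbers that nothing in the labels ties to a common culture. Across genes, deviations from the group means correlated by -0.035 to 0.15 for same-numbered libraries and by -0.14 to 0.16 for differently numbered ones. The numbers were not taken as pairs. With the replicate block, 1034 genes were higher past both thresholds and 2034 passed both in all, and the block changed no call of a member. Still, 5 of 8 libraries correlated best with a library of their own number, out of 4 in the other group, so these values do not settle whether the numbers are pairs. Of 890 refitted values of the other named genes, 6 were weaker (all of Cd151), 10 were stronger and 7 changed sign. With single libraries left out, the log2 fold change of Adamts3 ranged from -0.224 to 0.050 and changed sign without LPS + UDCA replicate 2 and without LPS replicate 2. The log2 fold change of Pacs2 ranged from -0.0144 to 0.0836 and changed sign without LPS + UDCA replicate 2 and without LPS replicate 3, and it was -0.028 with median-of-ratios scaling and -0.045 with quantile normalization. The log2 fold change of Tnfrsf1a was -0.023 with median-of-ratios scaling. These 3 genes passed the FDR threshold in 0 of their refits. Of 306 recomputed counts of list genes, 32 moved, either by over 1.5 times or between 0 and another count. The 306 include counts without the fold change minimum, which by construction can only stay or grow. The cause of the other moves was not tested. As TPM keeps no depth, levels under 1 TPM have no counting error here.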
